A study of Mus musculus with 12 samples.

Results

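The 37 genes described here encode the intracellular machinery that releases, stores, clears and reads calcium: the ryanodine and IP3 receptors, the SERCA and plasma membrane pumps, the sodium/calcium exchangers, the store-operated entry genes, the mitochondrial uniporter complex, calmodulin, CaMKII and the lumen chaperones calreticulin and calnexin. They were taken from a list of gene symbols that was drawn up with earlier results of these data known, and all 37 were found in both deposited tables, among 30165 genes in oligodendrocyte precursor cells (OPCs) and 17918 genes in neurons. Of these, 36 passed the filter on low counts in OPCs and 35 in neurons. Ryr1 was not tested in either cell type, and Slc8a2 was not tested in neurons.

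The libraries came from a study of L-type calcium channels in OPCs. Cells were taken from the cortex of control (ctl) mice, labelled WT, and of double knockout (dKO) mice carrying NG2-CreERT2 with floxed alleles of Cacna1c (exons 14 to 15) and Cacna1d (exon 2), which encode the pores of the L-type channels of these cells. According to the methods, recombination was induced on postnatal days 7 and 8 with 100 mg/kg of tamoxifen. For either cell type, ctl and dKO had 3 libraries each, and each library pooled the cells of 2 mice. Whether ctl mice carried Cre or floxed alleles or received tamoxifen is not given in the sources used here, nor is the age at isolation. OPCs were captured with beads against CD140, NG2 and O4. Neurons were what remained once cells binding beads for O4, CD11b, CD31 or ACSA-2 had been taken out. The NG2 promoter drives recombination in OPCs and also in pericytes, and it is not active in most neurons, so the neurons of dKO mice are neurons of animals whose OPCs were targeted.

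Cytosolic calcium is held far below its level outside the cell and in the endoplasmic reticulum. IP3 and ryanodine receptors release it from the reticulum, SERCA pumps return it, and pumps and exchangers of the plasma membrane carry it out. When the reticulum runs empty, STIM proteins open ORAI channels, and mitochondria take up part of each rise through the uniporter, while calmodulin and CaMKII read the signal. In OPCs these genes act beside the L-type channels, which let calcium in from outside.

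Total counts ranged from 14935963 to 19812274 per library in OPCs and from 15052892 to 16344601 in neurons. The knockout was checked on its own targets. Cacna1c in OPCs stood at 21.3, 23.5 and 25.1 normalised counts per 1000000 (CPM) in ctl replicates 1 to 3 and at 14.4, 19.3 and 17.9 CPM in dKO replicates 1 to 3. The groups did not overlap, with a log2 fold change of -0.44 (SE 0.15, unadjusted p under 0.05, edgeR adjusted p = 0.349). Cacna1d stood at 14.4, 10.9 and 14.6 CPM in ctl and at 5.31, 8.77 and 13.3 CPM in dKO OPCs, groups that overlapped (log2 fold change -0.55, SE 0.31). Leaving out dKO replicate 1 gave -0.27 and leaving out dKO replicate 3 gave -0.93, and the unadjusted p of Cacna1c was over 0.05 without ctl replicate 3 or dKO replicate 1. Transcripts lacking the floxed exons can still be counted at the remaining exons, so these values do not measure recombination. In neurons the log2 fold changes were 0.44 for Cacna1c and 0.80 for Cacna1d, with overlapping groups, and leaving out 1 library gave 0.15 to 0.77 and 0.35 to 1.197, lowest for both genes without dKO replicate 1. Markers went partly against the labels. Summed over 12 genes each, oligodendrocyte markers held 50260 to 86800 CPM in the OPC libraries against 1407 to 3000 CPM for OPC markers, and in the neuron libraries endothelial markers held 13040 to 26990 CPM against 750.0 to 1677 CPM for neuron markers, although CD31 beads were used to remove endothelial cells. No OPC marker and no neuron marker was at 0 in all libraries of its own cell type. In bulk samples such as these, fewer cells of a type and less RNA per cell cannot be told apart, and each level below belongs to the library and not to 1 cell type.

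Which of these genes were most abundant was read from the values that correct for gene length, FPKM for OPCs and TPM for neurons. FPKM here divides by the whole exonic length of a gene and TPM by the lengths of single transcripts, so the scales are given side by side and were not tested against each other. In ctl OPCs the highest means belonged to the lumen chaperone Calr (152 ± 9.23 FPKM, SD, n = 3), which binds calcium in the reticulum, and to the calmodulin genes Calm2 (147 ± 13.5 FPKM) and Calm3 (135 ± 7.34 FPKM). The ctl ranges of Calr and Calm2 overlapped, as did those of Calm2 and Calm3. Saraf (96.8 FPKM), a brake on store-operated entry, the housekeeping SERCA pump Atp2a2 (91.0 FPKM) and Canx (85.9 FPKM), a membrane-bound chaperone, came next. In ctl neurons the order was led by Calm2 (1471 ± 104 TPM, SD, n = 3), Smdt1 (374 ± 48.6 TPM), which encodes the uniporter subunit EMRE, and Saraf (348 ± 29.0 TPM), followed by Calr (188 TPM), Canx (182 TPM) and Atp2a2 (85.3 TPM). Ryanodine receptors stood at the low end: the ctl means of Ryr2 and Ryr3 were 0.222 and 0.132 FPKM in OPCs and 0.293 and 0.147 TPM in neurons, where Slc8a2 (0.0667 TPM) was lower still.

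**Figure D1:**
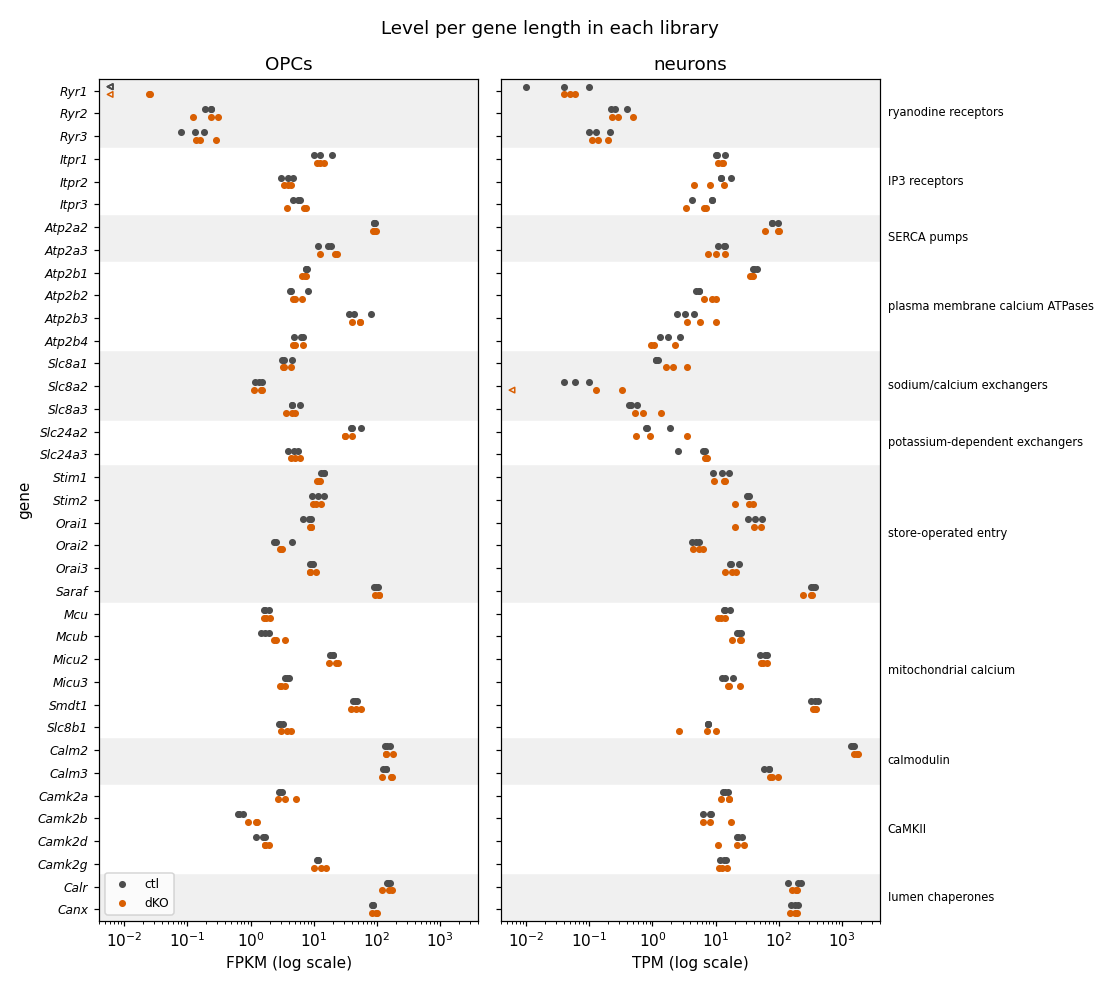
Level of the 37 genes in each of 12 libraries, as FPKM in OPCs (left) and TPM in neurons (right) on log axes, with genes on the vertical axis grouped by role, 1 point per library, ctl in grey and dKO in orange. Open triangles at the left edge mark values under 0.01. Ryanodine receptors lie at the low end of both panels, and Calm2 reaches 1471 TPM in ctl neurons.

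Against this background of levels, no member passed an adjusted p of 0.05 between dKO and ctl. In OPCs the count was 0 of 36 members with edgeR, where 0.00576% of all genes tested (1 of 17364) passed, and 0 of 36 with DESeq2, where 1.69% passed. The smallest adjusted p of a member in OPCs was 0.300 with edgeR and 0.0657 with DESeq2, both for Camk2b. In neurons the count was 0 of 35 members with edgeR, where 0% of all genes passed, and 0 of 35 with DESeq2, where 0.613% passed, and the smallest adjusted p of a member was 0.521 and 0.268.

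At an unadjusted p under 0.05, edgeR gave 2 members higher in dKO OPCs (Camk2b and Mcub), against 6.27% of all genes, and 0 members lower, against 5.27%. Together these were 5.56% of the members tested and 11.5% of all genes. DESeq2 gave the same pair higher and also 2 members lower (Slc24a2 and Stim1), together 11.1% of members against 11.9% of all genes by that tool. In neurons edgeR and DESeq2 gave 3 members higher (Atp2b2, Atp2b3 and Slc8a1), against 4.96% of all genes with edgeR, and 1 lower (Itpr2), against 4.04%. Together these were 11.4% of the members, against 9.0% of all genes with edgeR and 10.7% with DESeq2. Counted by libraries that did not overlap between the groups, OPCs had 2 members higher in dKO (Camk2b and Mcub), against 7.41% of all genes, and 2 lower (Stim1 and Micu3), against 9.55%. Neurons had 2 higher (Atp2b2 and Slc8a3), against 7.5%, and 2 lower (Itpr2 and Saraf), against 7.82%. Together these were 11.1% of members in OPCs and 11.4% in neurons, against 16.95% and 15.3% of all genes. With all libraries and this filter, the share of members past either mark was under that of all genes, except at the unadjusted p in neurons. In OPCs the order at the unadjusted p turned without dKO replicate 2 (16.7% of members against 13.3% of all genes) and without the filter on low counts (10.8% against 9.15%), and in neurons it turned without ctl replicate 2 (2.86% against 8.35%), ctl replicate 3 (5.71% against 6.94%) or dKO replicate 1 (5.71% against 8.29%). For groups that did not overlap it turned without the filter in OPCs (13.5% against 12.9%) and without dKO replicate 2 in neurons (31.4% against 29.5%).

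The members' changes were smaller than those of all genes in OPCs and near them in neurons. Their median log2 fold change was 0.02 in OPCs and 0.02 in neurons, against 0.0055 and 0.0075 for all genes, and 21 of 36 were higher in dKO OPCs and 19 of 35 in dKO neurons. Without its sign, the median log2 fold change in OPCs was 0.12 for members and 0.19 for all genes, and in neurons it was 0.22 and 0.21. In OPCs every member's log2 fold change lay between -0.41 and 0.73, and in neurons between -0.67 and 1.09. The median SE of a member was 0.17 in OPCs and 0.23 in neurons, against 0.20 and 0.23 for all genes.

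**Figure D2:**
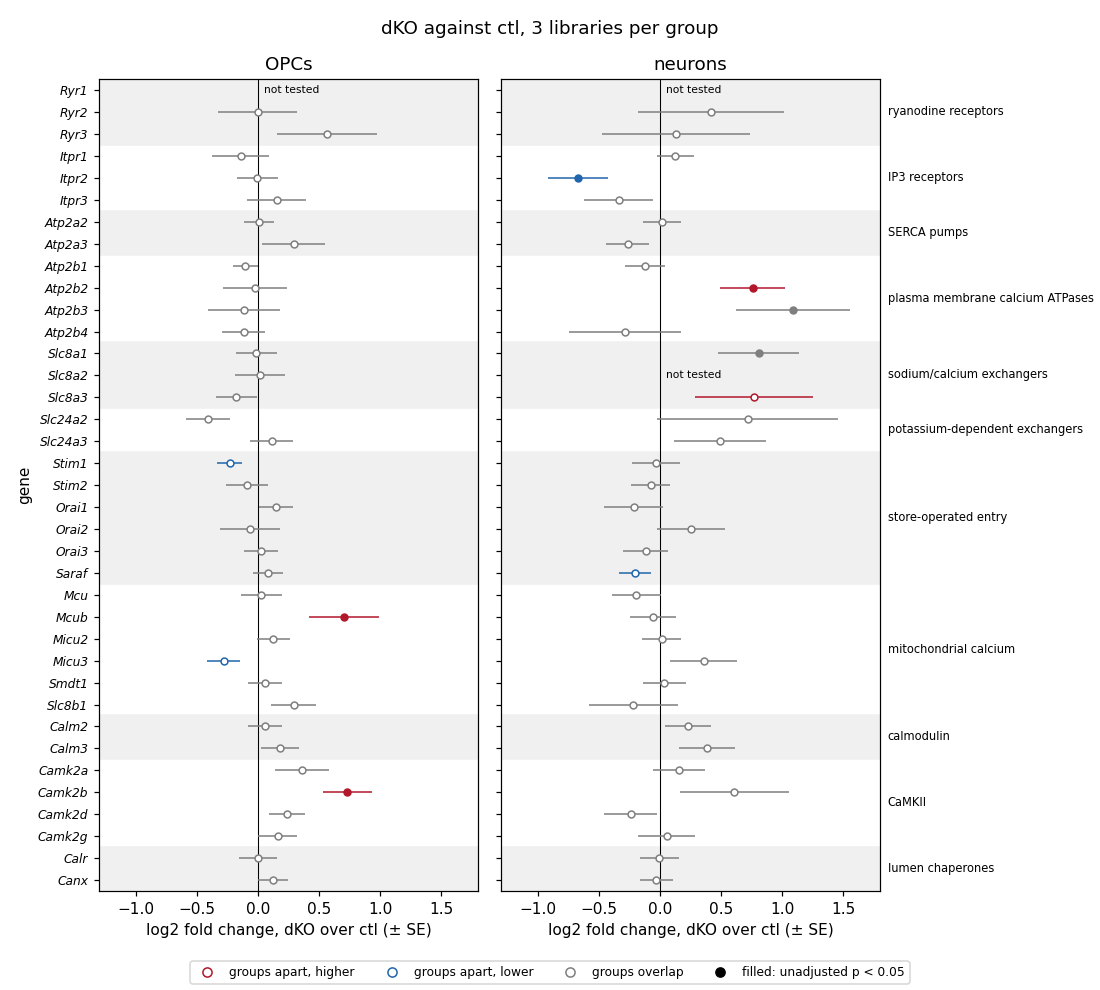
Log2 fold change of dKO over ctl (horizontal axis, ± SE) for each member, by role, in OPCs (left) and neurons (right), from 3 libraries per group. Filled points have an unadjusted p under 0.05 and coloured points have groups that did not overlap. The filled points are Camk2b (0.73) and Mcub (0.70) in OPCs and Atp2b2, Atp2b3, Slc8a1 and Itpr2 in neurons.

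Among the release channels, which open on IP3 or on calcium itself, the IP3 receptors carried nearly all reads. In OPCs, Itpr1 had the highest level per length of the family, at 19.3, 10.02 and 12.8 FPKM in ctl and 12.5, 11.3 and 14.6 FPKM in dKO. The highest value belonged to ctl replicate 1, and the groups overlapped. Itpr2 and Itpr3 in OPCs had log2 fold changes of -0.01 and 0.15, again with overlapping groups. Ryr2, the main ryanodine receptor of heart and brain, stood at 6.86, 5.52 and 6.93 CPM in ctl and 3.58, 6.80 and 8.94 CPM in dKO OPCs, and at 3.64, 1.81 and 2.13 CPM in ctl and 6.34, 1.76 and 2.03 CPM in dKO neurons. The groups overlapped in both, and Ryr3 stood at 1.55 to 5.50 CPM and 0.872 to 2.45 CPM. The skeletal muscle form Ryr1 had 0, 1 and 1 reads in ctl OPCs and 0, 11 and 9 reads in dKO OPCs, where a count of 0 allows up to 3 reads, and 1 to 14 estimated reads in neurons.

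Itpr2, the receptor form best known from glia and secretory cells, was the lowest of these in dKO neurons relative to ctl. It stood at 107, 79.2 and 83.1 CPM in ctl neurons and 39.9, 77.3 and 52.6 CPM in dKO neurons. The dKO libraries all lay below the ctl libraries, with dKO replicate 1 the lowest and dKO replicate 2 just under ctl replicate 2. Per length the groups overlapped, at 17.5, 12.2 and 12.1 TPM in ctl and 4.58, 13.5 and 8.30 TPM in dKO. The log2 fold change was -0.67 (SE 0.24, edgeR adjusted p = 0.521). The unadjusted p was under 0.05 with all libraries and over it without dKO replicate 1 (-0.47), ctl replicate 1 (-0.52) or dKO replicate 3 (-0.62). Of 12 endothelial markers, 12 were lower in dKO neurons, 9 of them without overlap and 3 at an unadjusted p under 0.05, and their sum was 24610 to 26990 CPM in ctl and 13040, 21560 and 22170 CPM in dKO replicates 1 to 3. Glial and microglial markers were lower too. Of 12 oligodendrocyte markers, 12 were lower in dKO neurons, 1 without overlap and 1 at that p, with sums of 4217, 2437 and 796 CPM in ctl and 1221, 1279 and 2038 CPM in dKO. Of 12 microglia markers, 12 were lower, 0 without overlap and 0 at that p, with sums of 1929, 429 and 896 CPM in ctl and 404, 1073 and 606 CPM in dKO. Of 12 astrocyte markers, 10 were lower, 2 without overlap and 2 at that p, with sums of 2156, 1606 and 1711 CPM in ctl and 919, 1554 and 1786 CPM in dKO. These 3 sums, like Itpr2, were highest in ctl replicate 1. No marker of the 4 lists was at 0 in all libraries, and the part of these cells in the Itpr2 values was not tested. Itpr1 (67.2 ± 9.88 CPM in ctl, SD, n = 3, and 73.4 ± 5.94 CPM in dKO) and Itpr3 (30.6 ± 8.62 and 24.2 ± 6.79 CPM) overlapped between the groups in neurons.

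The SERCA pumps, which refill the reticulum, overlapped between the groups in both cell types. Atp2a2 stood at 564, 537 and 570 CPM in ctl and 532, 548 and 598 CPM in dKO OPCs, and at 195, 248 and 221 CPM in ctl and 194, 232 and 246 CPM in dKO neurons. The log2 fold changes were 0.01 (SE 0.12) and 0.02 (SE 0.16), and the ranges of the groups lay over each other. Atp2a3, which made up 11.8% to 20.1% of the pair's summed level in OPCs and 9.04% to 15.02% in neurons, had log2 fold changes of 0.29 (SE 0.26) and -0.26 (SE 0.18).

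The plasma membrane calcium ATPases, calmodulin-regulated pumps that carry calcium out of the cell, had a different leading member in either table. In OPC libraries Atp2b3 held 68.3% to 78.8% of the family's summed FPKM, whereas in neuron libraries Atp2b1 held 62.0% to 81.0% of the summed TPM and Atp2b3 5.05% to 17.03%. In OPCs, Atp2b3 stood at 398, 172 and 212 CPM in ctl and 197, 258 and 267 CPM in dKO. Here ctl replicate 1 stood above the other 5 libraries, which overlapped. The log2 fold change was -0.12 (SE 0.29), and 0.33 without ctl replicate 1.

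Atp2b3 had the largest log2 fold change of any member in neurons. It stood at 16.5, 12.5 and 9.20 CPM in ctl and 48.6, 12.2 and 20.5 CPM in dKO neurons, with dKO replicate 1 far above the others and dKO replicate 2 inside the ctl range. The log2 fold change of 1.09 (SE 0.47, edgeR adjusted p = 0.549) was 0.36 without dKO replicate 1, 1.08 without ctl replicate 2 and 0.90 without ctl replicate 3. In each of these 3 cases the unadjusted p, which was under 0.05 with all libraries, was over it.

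The levels of Atp2b3 were set beside those of 8 choroid plexus and ependyma genes, led by Ttr, the transthyretin gene that marks the choroid plexus. Their sum was 9458, 8908 and 4993 CPM in ctl and 30760, 8739 and 14720 CPM in dKO neurons, and ranked by this sum the 6 libraries stood in the same order as for Atp2b3. In OPCs the sum was 24310, 10600 and 12060 CPM in ctl and 17060, 17710 and 16870 CPM in dKO. There ctl replicate 1 was highest and ctl replicate 2 lowest in both measures, but the order between them differed. By the sum dKO replicate 1 stood above ctl replicate 3, and by Atp2b3 below it (197 against 212 CPM). Of the 8 genes, 7 were tested in neurons, of which 6 were higher in dKO and 5 of these had an unadjusted p under 0.05, while 1 was lower at that p. In OPCs 0 of 8 had such a p. None was at 0 in all libraries. The part of these cells in the Atp2b3 values was not tested.

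Atp2b2, the fast neuronal form, was higher in all dKO neuron libraries. It stood at 23.4, 20.9 and 25.7 CPM in ctl and 56.5, 26.1 and 35.8 CPM in dKO neurons, and the lowest dKO library lay just above the highest ctl library. The log2 fold change was 0.76 (SE 0.27, edgeR adjusted p = 0.521). The unadjusted p was over 0.05 without dKO replicate 1 (0.41) and without ctl replicate 2 (0.68). Its share of the family's summed TPM was 9.55%, 9.63% and 11.3% in ctl and 17.2%, 12.9% and 17.8% in dKO. These shares did not overlap either, but they rest on the same libraries and are no separate evidence. In OPCs Atp2b2 had a log2 fold change of -0.02 (SE 0.26), which became 0.37 without ctl replicate 1, where it was highest (104 CPM against 52.7 to 84.1 CPM in the other libraries). Atp2b1, the leading form per length in neurons, stood at 44.6, 40.8 and 39.3 TPM in ctl and 37.04, 39.7 and 34.4 TPM in dKO. Atp2b1 and Atp2b4 overlapped between the groups in both cell types, with log2 fold changes of -0.10 and -0.12 in OPCs and -0.12 and -0.28 in neurons. Without dKO replicate 1, these were the only members under an unadjusted p of 0.05 in neurons, in place of the 4 named above (5.71% of members, against 8.29% of all genes).

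The sodium/calcium exchangers trade calcium for sodium across the plasma membrane. In OPCs, Slc8a3 had the highest level per length (4.48, 5.99 and 4.55 FPKM in ctl, 5.05, 4.61 and 3.62 FPKM in dKO), with Slc8a1 close to it at 3.14 to 4.53 FPKM in all libraries. The share of Slc8a3 in the family's summed FPKM was 48.7%, 49.7% and 51.3% in ctl and 46.5%, 48.5% and 45.3% in dKO OPCs. These shares did not overlap, though the CPM values of Slc8a1 (log2 fold change -0.01) and Slc8a3 (-0.18, SE 0.17) did. Leaving out 1 library gave -0.28 to -0.04 for Slc8a3, nearest to 0 without ctl replicate 2 (-0.04) and dKO replicate 3 (-0.07).

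In neurons the same family was led by Slc8a1, and neither tested member passed an adjusted p of 0.05. Slc8a1 stood at 12.2, 11.7 and 9.54 CPM in ctl and 29.8, 16.9 and 11.9 CPM in dKO neurons. 2 dKO libraries lay above the ctl range and dKO replicate 3 inside it, with a log2 fold change of 0.81 (SE 0.33, edgeR adjusted p = 0.541). It was 0.37 without dKO replicate 1, 0.88 without ctl replicate 1, 0.84 without ctl replicate 2 and 0.71 without ctl replicate 3, each with an unadjusted p over 0.05. In TPM the groups did not overlap, at 1.13, 1.24 and 1.15 TPM in ctl and 2.11, 3.54 and 1.67 TPM in dKO, where dKO replicate 2 was highest. Slc8a3 was counted at 1.11, 1.62 and 1.24 CPM in ctl and 1.82, 1.88 and 3.08 CPM in dKO neurons, from 17 to 47 estimated reads per library. These CPM values did not overlap (log2 fold change 0.77, SE 0.49, edgeR adjusted p = 0.672), and the value was 0.48 without dKO replicate 3. The TPM values, 0.46, 0.57 and 0.42 in ctl and 0.54, 0.72 and 1.36 in dKO, overlapped. The brain form Slc8a2 had 0 to 20 estimated reads in neurons and stood at 6.12 to 8.11 CPM in OPCs (log2 fold change 0.02).

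Of the potassium-dependent exchangers, only Slc24a2 and Slc24a3 are members. Of this pair alone, Slc24a2 held 83.5% to 92.01% of the summed FPKM in OPCs, and Slc24a3 56.9% to 92.7% of the summed TPM in neurons. These shares leave out Slc24a1, Slc24a4 and Slc24a5, of which Slc24a5 was counted at 19.7 to 93.4 CPM in neurons, against 5.14 to 18.5 CPM for Slc24a3, and Slc24a4 at 17.7 to 31.1 CPM in OPCs, against 18.2 to 28.5 CPM for Slc24a3. Slc24a2 stood at 483, 691 and 498 CPM in ctl and 486, 387 and 385 CPM in dKO OPCs. The highest value was that of ctl replicate 2, and dKO replicate 1 overlapped the ctl libraries. This was the lowest log2 fold change of a member in OPCs, at -0.41 (SE 0.18, edgeR adjusted p = 0.435). Oligodendrocyte markers in the same libraries gave 10 of 12 genes lower in dKO, 4 of them without overlap and at an unadjusted p under 0.05, with sums of 68160, 80560 and 73810 CPM in ctl and 86800, 72040 and 50260 CPM in dKO, and none was at 0. Their part in the Slc24a2 values was not tested. In neurons, Slc24a3 stood at 2.55, 6.84 and 6.29 TPM in ctl and 6.88, 7.08 and 7.44 TPM in dKO, and Slc24a2 at 3.27 to 27.9 CPM over all libraries.

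Store-operated entry was described by 6 genes. In OPCs the reticulum calcium sensor Stim1 stood at 155, 148 and 136 CPM in ctl and 129, 118 and 128 CPM in dKO. The lowest ctl library lay above the highest dKO library, and the log2 fold change was -0.23 (SE 0.11, edgeR adjusted p = 0.447). In neurons its value was -0.03 (SE 0.20). Its paralogue Stim2, which senses smaller drops in store calcium, had log2 fold changes of -0.09 in OPCs and -0.08 in neurons. The pair was near balance in OPCs (Stim1 48.6% to 60.0% of the summed FPKM) and tilted to Stim2 in neurons (65.4% to 78.7% of the summed TPM).

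Saraf had the highest level per length among these genes in both cell types, at 89.5 to 108 FPKM in OPCs and 242 to 379 TPM in neurons. In OPCs it stood at 89.5, 104.7 and 96.02 FPKM in ctl and 107.6, 107.4 and 92.5 FPKM in dKO. In neurons it stood at 364, 339 and 350 CPM in ctl and 304, 311 and 300 CPM in dKO. In CPM the dKO libraries lay close together and all below ctl, with a log2 fold change of -0.20 (SE 0.13, edgeR adjusted p = 0.671) that was -0.20 also without dKO replicate 1. In TPM the groups overlapped, at 379, 343 and 321 TPM in ctl and 242, 332 and 320 TPM in dKO. In OPCs the log2 fold change was 0.08 (SE 0.12). The pore genes Orai1, Orai2 and Orai3 overlapped between the groups in both cell types, with log2 fold changes of 0.15, -0.06 and 0.02 in OPCs and -0.22, 0.25 and -0.12 in neurons. By level per length Orai1 led in neurons (20.03 to 55.03 TPM), and Orai1 and Orai3 were alike in OPCs (6.82 to 9.04 and 8.63 to 10.7 FPKM).

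Of the 6 mitochondrial members, Smdt1 had the highest level per length, at 42.2, 48.8 and 45.6 FPKM in ctl and 46.9, 56.0 and 39.0 FPKM in dKO OPCs, and at 422, 374 and 325 TPM in ctl and 385, 347 and 381 TPM in dKO neurons, with overlap in both. Of its exonic bases, 16.6% are shared with Pheta2 in GENCODE M21, the highest such share of any member. Mcub, a uniporter subunit that dampens conduction, was among the least abundant members in OPCs, with 28 to 75 reads per library. It stood at 2.25, 1.91 and 2.57 CPM in ctl and 3.30, 3.12 and 4.59 CPM in dKO OPCs. All dKO libraries lay above ctl, and the log2 fold change was 0.70 (SE 0.29, edgeR adjusted p = 0.412). It was 0.50 without dKO replicate 3, 0.60 without ctl replicate 2, 0.70 without ctl replicate 1 and 0.80 without ctl replicate 3, each with an unadjusted p over 0.05. In neurons Mcub stood at 13.7 to 15.5 CPM in ctl and 13.7 to 14.8 CPM in dKO, with a log2 fold change of -0.06 (SE 0.19).

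Since Mcub takes the place of the pore subunit Mcu, their proportion was computed. Mcub held 45.7%, 46.7% and 53.5% of the summed FPKM of the pair in ctl and 58.8%, 58.7% and 62.8% in dKO OPCs, without overlap, while Mcu itself stood at 11.4 to 14.1 CPM in ctl and 11.5 to 14.3 CPM in dKO. Markers of several cell types were higher in the same dKO OPC libraries. Of 12 microglia markers, 12 were higher in dKO, all 12 at an unadjusted p under 0.05 and 7 without overlap, with sums of 282, 271 and 326 CPM in ctl and 832, 350 and 1091 CPM in dKO. Of 12 astrocyte markers, 12 were higher, 11 of them at that p and 7 without overlap, with sums of 1275, 1899 and 2261 CPM in ctl and 2246, 6296 and 3461 CPM in dKO. Of 12 endothelial markers, 12 were higher, 1 of them at that p and 0 without overlap, with sums of 2573, 1877 and 2680 CPM in ctl and 3519, 1691 and 4340 CPM in dKO. Of 12 OPC markers, 9 were higher, 1 of them at that p and 0 without overlap. Their sums were 1407, 2355 and 1860 CPM in ctl and 2162, 3000 and 1451 CPM in dKO. No marker of these lists was at 0 in all libraries, and the part of these cells in the Mcub values was not tested.

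Of the uniporter's calcium gatekeepers, Micu3 stood at 25.48, 21.94 and 23.37 CPM in ctl and 18.51, 21.85 and 17.87 CPM in dKO OPCs. The groups did not overlap, although ctl replicate 2 and dKO replicate 2 were nearly level. The log2 fold change was -0.28 (SE 0.14, edgeR adjusted p = 0.468), and -0.38 with an unadjusted p under 0.05 without dKO replicate 2. In neurons it was 0.36 (SE 0.28), and -0.04 without dKO replicate 1, where Micu3 was highest (58.5 CPM against 28.1 to 35.9 CPM). Micu2 and the mitochondrial exchanger Slc8b1, which lets calcium out of the organelle, overlapped between the groups, with log2 fold changes of 0.13 and 0.29 in OPCs and 0.02 and -0.22 in neurons.

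**Figure D3:**
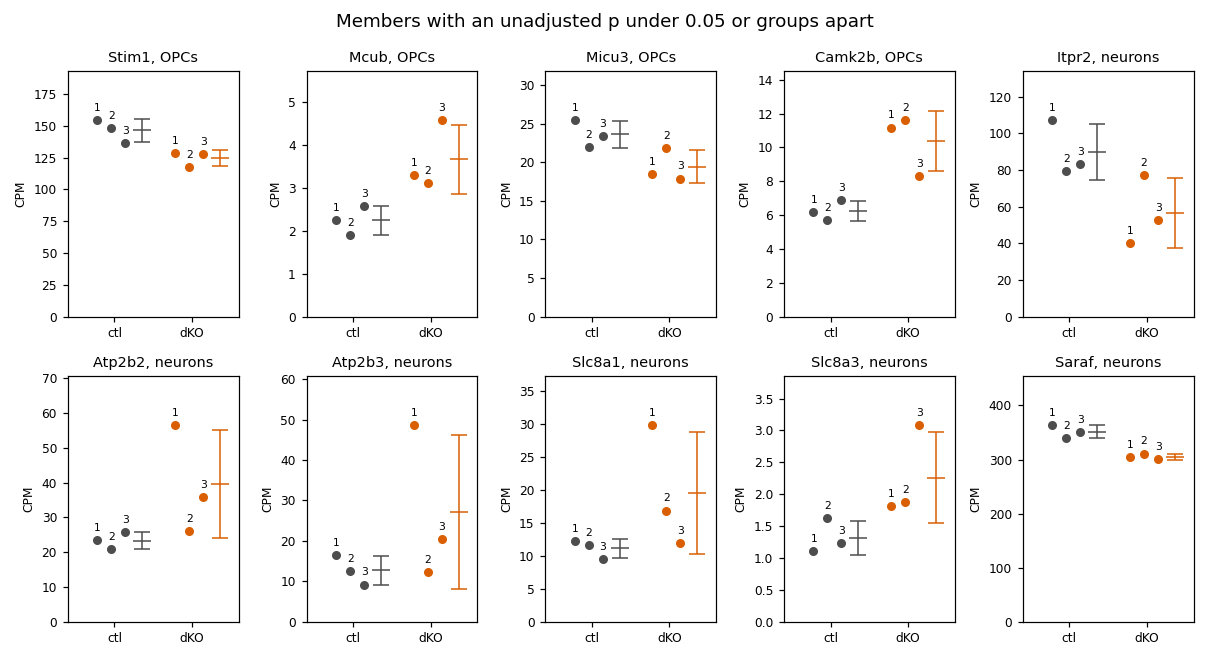
CPM per library (points numbered by replicate) with mean ± SD (bars, n = 3) for the 10 members with an unadjusted p under 0.05 or with groups that did not overlap, 4 in OPCs and 6 in neurons. In neurons, dKO replicate 1 is the extreme dKO library for Atp2b2, Atp2b3, Slc8a1 and Itpr2, and the 3 dKO libraries lie together for Saraf in CPM.

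Calmodulin, the general calcium sensor, is made from several genes with the same protein product. Calm2 stood at 143, 135 and 162 FPKM in ctl and 181, 138 and 140 FPKM in dKO OPCs, and at 1576, 1367 and 1470 TPM in ctl and 1709, 1524 and 1772 TPM in dKO neurons. Calm3 reached the level of Calm2 in OPCs (121 to 172 FPKM) but not in neurons (59.5 to 98.6 TPM), where Calm2 held 94.5% to 96.1% of the summed TPM of these 2 members. Log2 fold changes were 0.06 and 0.18 in OPCs and 0.23 and 0.39 in neurons, with overlapping groups. By CPM in neurons, dKO replicate 1 was highest for each. It held 1272 CPM for Calm2, against 806 to 989 CPM in the other libraries, and 148 CPM for Calm3, against 77.6 to 86.7 CPM. Of the 100-base windows of their transcripts, 0.72% for Calm2 and 0.12% for Calm3 also occur in transcripts of other genes.

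CaMKII, the kinase that calmodulin activates, was led by Camk2g in OPCs (11.5, 11.4 and 11.7 FPKM in ctl, 10.1, 15.7 and 13.02 FPKM in dKO) and by Camk2d in neurons (26.4, 23.0 and 21.4 TPM in ctl, 11.04, 28.4 and 21.8 TPM in dKO). The exception was dKO replicate 1 of neurons, where Camk2d had the smallest share of the family (18.4%) and Camk2b the largest (28.8%). Camk2b, a form typical of neurons, had the smallest p of any member in OPCs. It stood at 6.16, 5.72 and 6.87 CPM in ctl and 11.2, 11.6 and 8.32 CPM in dKO OPCs, and all dKO libraries lay above ctl. The log2 fold change was 0.73 (SE 0.20, edgeR adjusted p = 0.300), and leaving out any 1 library gave 0.64 to 0.86, each with an unadjusted p under 0.05. Its share of the family's summed FPKM was 3.95%, 3.90% and 4.35% in ctl and 7.45%, 5.30% and 4.86% in dKO. Of 12 neuron markers, 11 were higher in dKO OPCs, 1 of them without overlap and at an unadjusted p under 0.05, with sums of 179 to 230 CPM in ctl and 221 to 282 CPM in dKO, and none was at 0. The part of these cells and of the astrocyte, microglia and endothelial markers in the Camk2b values was not tested.

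In neurons Camk2b stood at 13.9, 19.2 and 20.7 CPM in ctl and 50.4, 14.1 and 17.8 CPM in dKO. Here dKO replicate 1 alone lay above the ctl range, and the log2 fold change of 0.61 (SE 0.45) was -0.17 without it. Camk2a, Camk2d and Camk2g were not separated in either cell type. Their log2 fold changes were 0.36, 0.24 and 0.16 in OPCs, where Camk2a in dKO replicate 3 (20.4 CPM) and Camk2g in dKO replicate 1 (64.2 CPM) lay below every ctl library, and 0.16, -0.24 and 0.05 in neurons.

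The lumen chaperones, which bind calcium while folding proteins, overlapped between the groups. Calr stood at 476, 429 and 419 CPM in ctl and 506, 356 and 460 CPM in dKO OPCs, and at 221, 206 and 161 CPM in ctl and 213, 188 and 185 CPM in dKO neurons. Canx stood at 396 to 413 CPM in ctl and 402 to 471 CPM in dKO OPCs. The log2 fold changes were -0.0013 (SE 0.16) and -0.0053 (SE 0.16) for Calr and 0.12 (SE 0.12) and -0.03 (SE 0.14) for Canx, in OPCs and neurons in that order.

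**Figure D4:**
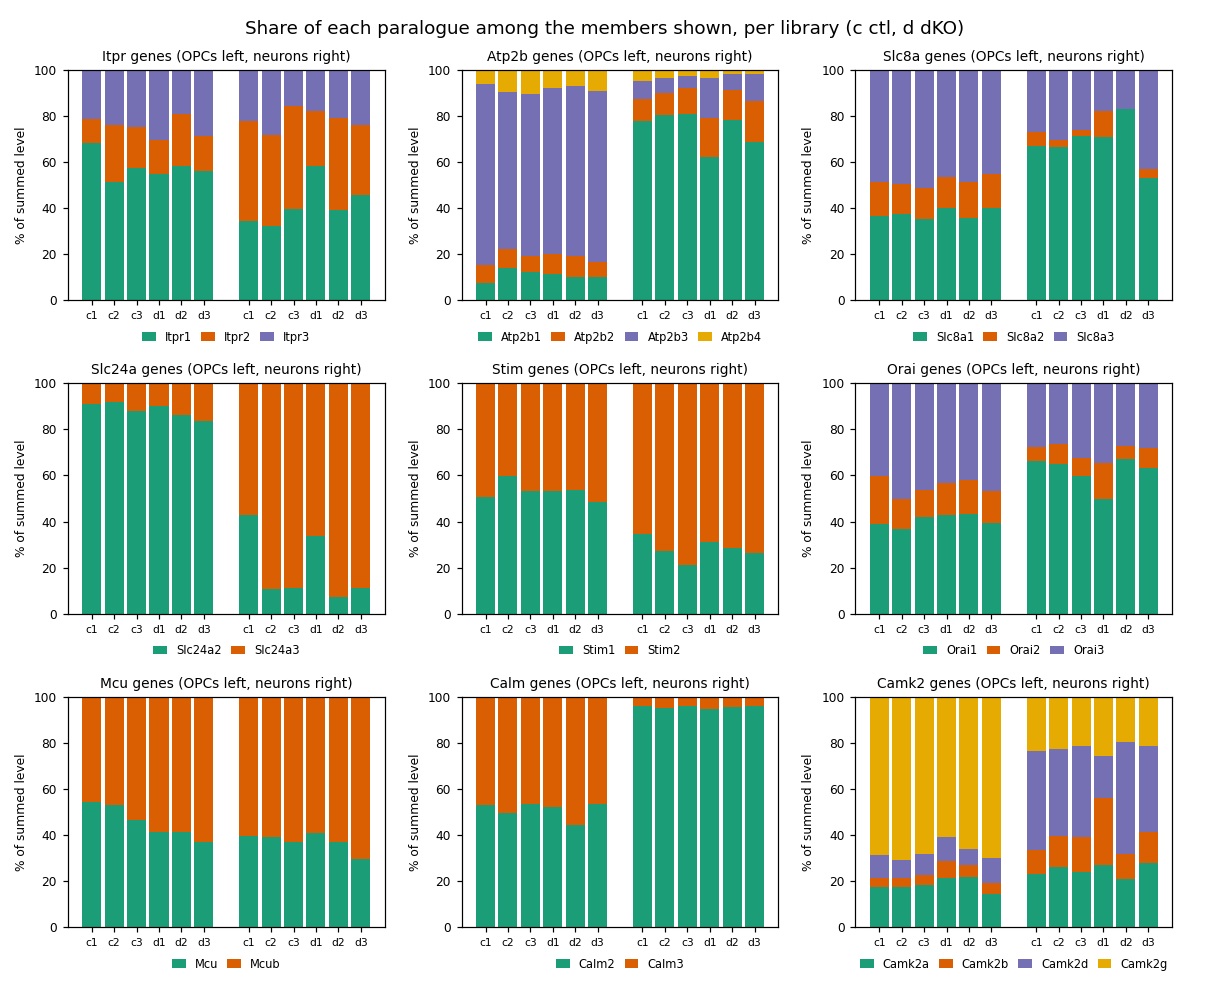
Share of each paralogue in the summed level of the members of its family, other paralogues such as Slc24a5 left out (vertical axis, percent of summed FPKM in OPCs and of summed TPM in neurons) in each library, with c for ctl, d for dKO and the replicate number. Among the members shown, Atp2b3, Slc24a2 and Camk2g hold the largest shares in OPC libraries, and in neuron libraries Atp2b1, Slc24a3 and, except in dKO replicate 1, Camk2d.

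How far single libraries shaped these values was counted. In neurons, dKO replicate 1 held the highest or the lowest of the 6 values for 27 of 35 members (77.1%), the highest for 19 and the lowest for 8, and for 57.5% of all genes tested. The next library, ctl replicate 1, did so for 31.4% of members. Neuron markers summed to 1677 CPM in dKO replicate 1 and to 750.0 to 1284 CPM in the other 5 libraries. Of these 12 genes, 10 were higher in dKO neurons, 1 of them at an unadjusted p under 0.05, and none was at 0, and their part in the values of Atp2b2, Slc8a1 and Camk2b was not tested. In OPCs dKO replicate 3 was the extreme library for 20 of 36 members (55.6%) and ctl replicate 2 for 17 (47.2%), against 41.8% and 45.5% of all genes. Without dKO replicate 1, neurons had 0 members higher, against 3.94% of all genes, and 2 lower, against 4.35%, at an unadjusted p under 0.05.

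**Figure D5:**
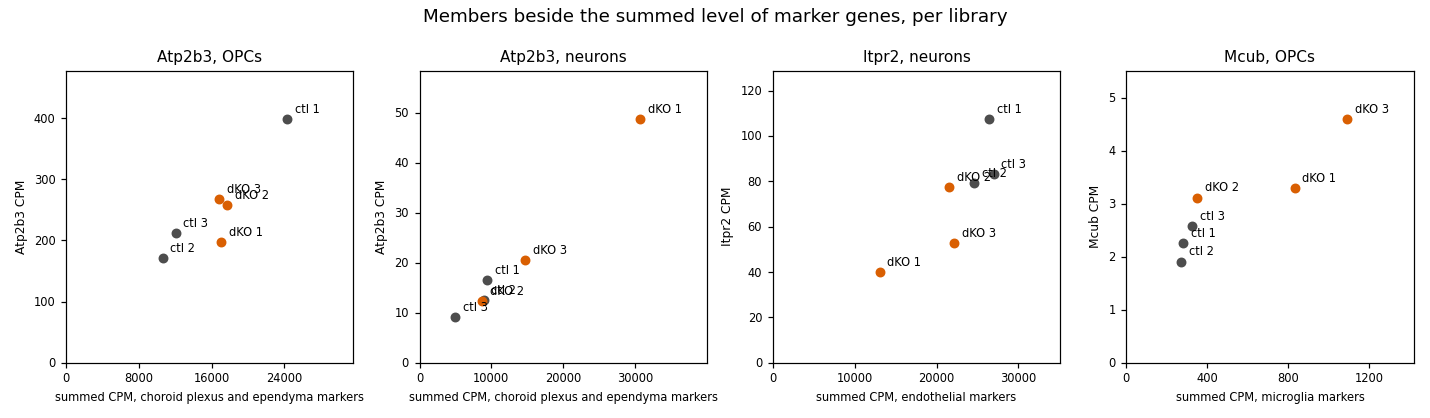
CPM of Atp2b3, Itpr2 and Mcub (vertical axes) against the summed CPM of marker genes (horizontal axes) in each of 6 libraries, ctl in grey and dKO in orange. Atp2b3 is highest where choroid plexus and ependyma markers are highest, in ctl replicate 1 of OPCs (398 CPM) and dKO replicate 1 of neurons (48.6 CPM).

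The other genes of calcium handling were counted from 7 lists of 116 genes, of which 115 were found in either table. An adjusted p under 0.05 was reached by 0 of them with edgeR in OPCs and in neurons. The counts that follow, at an unadjusted p under 0.05, stand beside 11.5% of all genes in OPCs and 9.0% in neurons. Genes that couple to or fill the store gave 2 of 22 at an unadjusted p under 0.05 in OPCs, with the reticulum protein Rcn1 higher (20.3 to 23.9 CPM in ctl, 26.5 to 33.1 CPM in dKO, log2 fold change 0.44) and the junctophilin Jph4 lower (220 to 269 CPM in ctl, 126 to 192 CPM in dKO, -0.56). In neurons the same list gave 3 of 22, with the scaffold Homer1 (log2 fold change 0.61, or 0.40 without dKO replicate 1) and the SERCA inhibitor Sln (0.92) higher and Rcn1 lower (-0.36).

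Genes that make and remove IP3 gave 3 of 16 in OPCs, all higher in dKO. The phospholipase Plcb1 stood at 25.4, 23.6 and 26.7 CPM in ctl and 33.3, 38.1 and 44.4 CPM in dKO OPCs, without overlap, with a log2 fold change of 0.61 (SE 0.14, edgeR adjusted p = 0.255, DESeq2 adjusted p = 0.0238). Plcb2 (log2 fold change 1.58) and Plcg2 (0.58), phospholipases of blood and immune cells, overlapped between the groups and were highest in dKO replicates 1 and 3, the libraries with the highest microglia marker sums, whose part was not tested. In neurons 1 of 16 passed this mark, Plcd1 (0.59). Among store-operated entry partners, 1 of 8 did in either cell type: the channel Trpc1 in OPCs, at 38.2, 36.9 and 33.8 CPM in ctl and 27.1, 28.9 and 25.8 CPM in dKO without overlap (-0.41, SE 0.11), and the ORAI regulator Cracr2b in neurons (-0.53, or -0.30 without dKO replicate 1). Cracr2b was lowest in dKO replicate 1 (23.8 CPM), as was the endothelial marker sum (13040 CPM), and the part of endothelial cells was not tested.

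Calmodulin and calcineurin signalling gave 5 of 28 genes at an unadjusted p under 0.05 in OPCs and 3 of 29 in neurons. In OPCs the smallest p belonged to the calcineurin inhibitor Rcan1 (45.5 to 58.0 CPM in ctl, 65.9 to 77.9 CPM in dKO, log2 fold change 0.42), the CaMKII inhibitor Camk2n1 (0.59, or 0.39 without dKO replicate 2) and the calcium-stimulated adenylyl cyclase Adcy8 (0.89). Camk2n1 and Adcy8 overlapped between the groups. With 1 library left out, Camk2n1 kept this p only without dKO replicate 3 (0.82). Adcy8 lost it without ctl replicate 1 (0.65), ctl replicate 3 (0.98), dKO replicate 2 (0.62) or dKO replicate 3 (0.88). In neurons it belonged to the calcineurin subunit Ppp3cc (108 to 127 CPM in ctl, 55.8 to 93.0 CPM in dKO, -0.59), the transcription factor Nfatc3 (-0.49) and Camkv (1.17, or 0.34 without dKO replicate 1). Buffers and EF-hand sensors gave 2 of 20 in OPCs, Hpcal4 (0.56, or 0.31 without dKO replicate 2) and S100a10 (0.75, or 0.47 without dKO replicate 3 and 0.50 without ctl replicate 2), and 1 of 20 in neurons, S100b (-0.90, or -0.36 without ctl replicate 1). Golgi and other pumps (0 of 7 in OPCs, 0 of 6 in neurons) and further mitochondrial genes (0 of 9 in either) gave none.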

How the data were processed

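RNA was sequenced in 12 libraries, 3 per group, each of 2 pooled mice, so p-values measure the spread between pools. For OPCs the authors deposited a read count and an FPKM value per gene and library, made with featureCounts after HISAT2 alignment. For neurons they deposited an estimated count and a TPM value per transcript and library, whose tools are not given in the sources used here. The labels name mm39 and the methods GRCm38. Fold changes and p-values of the authors' own comparisons were not used. Nor were 18 further per-sample columns, whose names carry the same group labels and replicate numbers.

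Transcript counts in neurons were summed per gene and rounded (17794 gene IDs had a symbol, and 0.0441% of counts had none). A gene was tested where its normalized counts averaged 10 or more, by the quasi-likelihood test of edgeR (version 4.0.16, limma 3.58.1, R 4.3.3; TMM, Benjamini-Hochberg adjustment over all genes tested, called at an adjusted p under 0.05), separately in each cell type. The SE is the log2 fold change over the square root of F, without sign. DESeq2 1.42.0, its size factors in edgeR, no filter, an adjusted p of 0.1, a replicate block, unrounded sums and leaving out each library were the alternatives. Groups were said not to overlap where every normalized value of one lay above every value of the other. The script was tested on simulated data.

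Members and lists were chosen with earlier results of these data known. Values per library were given for members with an unadjusted p under 0.05 or groups that did not overlap, and for the highest member of each role per length. Of the other calcium genes, up to 3 per list with the smallest unadjusted p under 0.05 were named. Within each group of a cell type, no library pair matched within sampling noise (chi-square per gene of 15.9 or more). Pairs across groups or cell types were not compared. Against GENCODE M21 transcripts, 32 of 37 members shared no 100-base window with another gene.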

Additional observations from a re-analysis of the deposited data

Results flagged for a closer look

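Among the further calcium genes, 3 had groups that did not overlap in either cell type and lay in opposite directions, a difference between cell types that was not tested. They were 2.8% of the 107 such genes tested in both cell types, and 173 of all 13398 genes tested in both (1.29%) had this pattern. Rcn1, a calcium-binding protein of the secretory pathway, was higher in dKO OPCs (log2 fold change 0.44) and lower in dKO neurons (-0.36, 85.5, 67.0 and 68.9 CPM in ctl and 63.0, 52.1 and 56.9 CPM in dKO). Sdf4, a calcium-binding protein of the Golgi, stood at 172, 178 and 174 CPM in ctl and 189, 188 and 178 CPM in dKO OPCs (0.087) and at 210, 183 and 191 CPM in ctl and 165, 173 and 175 CPM in dKO neurons (-0.19). Trpc1 was lower in dKO OPCs (-0.41) and higher in dKO neurons (0.56, 4.55, 5.73 and 3.91 CPM in ctl and 7.28, 7.34 and 6.29 CPM in dKO). No member of the 37 had this pattern, and groups of 3 were not tested for outlying libraries.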

How the results depend on the processing

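An adjusted p under 0.05 was reached by 0 members under each alternative run in OPCs and in neurons. Over all genes in OPCs, the count was 1 with edgeR, 293 with DESeq2, 87 without a filter, 7 at an adjusted p of 0.1 and 1 to 199 with 1 library left out (199 without dKO replicate 2). In neurons it was 0 with edgeR, 88 with DESeq2 and 0 with any 1 library left out. In OPCs, members higher at an unadjusted p under 0.05 numbered 2 (1 to 5 with a library left out, against 3.61% to 8.08% of all genes) and members lower 0 (2 with DESeq2, against 5.2%, 1 without a filter, against 3.56%, and 0 to 1 with a library left out, against 2.73% to 5.21%). Members without overlap numbered 3 to 7 higher, against 10.1% to 15.4% of all genes, and 2 to 3 lower, against 13.1% to 15.6%, with a library left out, where fewer libraries leave more genes without overlap. The median log2 fold change lay between -0.0012 and 0.082, the latter without ctl replicate 1. In neurons, with a library left out, 0 to 4 members were higher (3.3% to 6.01% of all genes) and 0 to 2 lower (2.14% to 5.02%) at that p, and 2 to 7 higher (11.3% to 15.4%) and 2 to 6 lower (11.55% to 14.04%) without overlap, with a median of -0.06 to 0.09.

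Direction was followed for 44 values. They belong to members picked by the unadjusted p or by groups that did not overlap, to Cacna1c and Cacna1d, and to other calcium genes named by their p. Of these, 37 kept their direction under every alternative run. The direction of the remaining members was not followed in this way. Among these followed values, leaving out 1 library reversed, in OPCs, Atp2b2 (-0.19 to 0.37), Atp2b3 (-0.34 to 0.33), Itpr2 (-0.15 to 0.15) and Slc8a1 (-0.15 to 0.15). In neurons it reversed Camk2b (-0.17 to 0.92), Micu3 (-0.039 to 0.53) and Stim1 (-0.19 to 0.15). Without a filter the OPC values were 0.0043 for Atp2b2, 0.013 for Itpr2 and 0.010 for Slc8a1. Plcb1 was called in OPCs with DESeq2 (0.61). The cause was not tested.

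With the replicate number as a block, 27 genes passed an adjusted p in OPCs and 1 member (Camk2b, higher; 2.78% of members, against 11.7% of all genes) an unadjusted p under 0.05. The log2 fold changes of Atp2b2 and Itpr2 became 0.036 and 0.0040. Same-numbered libraries correlated at -0.10, 0.14 and 0.11 in OPCs and 0.17, -0.09 and -0.08 in neurons. These lay inside the spread of differently numbered pairs, whose lowest and highest values were -0.28 and 0.20 (OPCs) and -0.15 and 0.21 (neurons). Such values cannot tell whether same-numbered libraries share more than a number, and this was not tested. With 3 pools per group, members under about 3 CPM rest on fewer than 100 reads per library.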
